A study of Homo sapiens with 6 samples.

Results

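STAT3 was followed on every probe set of the array that carries its symbol and no other, which are 208991_at, 208992_s_at, 225289_at and 243213_at, 4 of the 41091 probe sets with a single gene symbol. STAT3 was chosen by these same signals, which differed between the arrays, so its levels and folds are given as a description, with no test. The study used the human ovarian carcinoma lines Caov-3 and SKOV-3 and hybridised their total RNA to 6 expression arrays (Affymetrix U133 Plus 2.0), 3 from either line. Within a line the arrays held cells given siltuximab (CNTO328, an antibody that binds IL-6) for 4 h and then IL-6 at 30 ng/ml for 1 h, cells given IL-6 alone for 1 h, and untreated cells. RNA of 3 flasks was pooled for an array, so each group is 1 array with no replicate, and differences between the flasks cannot be seen. The labels give no dose of siltuximab, and cells given the antibody without IL-6 were not analysed here. The series was set up to ask how the antibody changes the expression that IL-6 induces.

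STAT3 is a transcription factor that waits in the cytoplasm until a cytokine receptor is engaged. IL-6 binds its receptor IL6R and the shared chain gp130 (IL6ST), the kinases JAK1, JAK2 and TYK2 on that chain phosphorylate STAT3, and the protein pairs up and enters the nucleus. There it induces, among others, SOCS3, which shuts the receptor down, and in several cell types the STAT3 gene itself. STAT3 is active in many ovarian carcinomas, where it is linked to survival and growth genes.

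The gene lies on chromosome 17 (GRCh38.p14, 42313324 to 42388442, minus strand) and spans 75119 bases. The RefSeq promoter window, chr17:42388393-42388692 on the minus strand, runs from 250 bases before the gene's start to 50 after it and is shown because a factor that induces its own gene would bind near it. Capitals mark matches, on either strand, to 3 motifs of many promoters. These are the GC box with the letters GGGCGG, the CCAAT box, and TGACG, which is part of the cyclic AMP response element.
STAT3 promoter: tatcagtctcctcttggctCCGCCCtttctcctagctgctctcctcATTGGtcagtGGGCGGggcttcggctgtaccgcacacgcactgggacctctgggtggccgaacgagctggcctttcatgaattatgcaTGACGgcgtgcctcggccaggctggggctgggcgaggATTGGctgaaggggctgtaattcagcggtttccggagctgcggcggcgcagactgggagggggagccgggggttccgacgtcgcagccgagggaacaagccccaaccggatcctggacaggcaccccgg
The window is rich in G and C, at 65.33%. The GC box occurs at -231 (as CCGCCC) and -194 relative to the gene's start, the CCAAT box at -204 and -79 (both as ATTGG), and TGACG at -116, and no match overlaps another. These letters are common, since 44.95% of the 35116 promoter windows of the same length hold the GC box, 34.61% the CCAAT box and 24.55% TGACG. The STAT site in its usual spacing, TTCNNNGAA, has 0 matches in this window and is present in 7.657% of all windows. The wider spacing, TTCNNNNGAA, also has 0 matches, against 6.439% of all windows. A missing match says only that the letters are not in these 300 bases.

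The authors had scaled the 6 arrays alike, to trimmed means of 500.06 to 500.07. In the control probe sets for ACTB (beta-actin), which serve to follow RNA integrity, the ratio of 5' to 3' signal was 0.494 for Caov-3 with IL-6 and ran from 0.643 to 0.767 elsewhere. That array was also low in 28S ribosomal RNA, at 887 on the middle probe set, with 2382 to 3307 on the others. Its GAPDH ratio, 1.05, was inside the span of the rest (0.957 to 1.07). Control transcripts that are spiked in stood at 1.49 and 1.52 times the untreated level on the Caov-3 and SKOV-3 IL-6 arrays. Of 11 epithelial and ovarian carcinoma markers, 10 were at or above the array's median signal on every Caov-3 array (all but WT1) and 6 on every SKOV-3 array, where the cadherin CDH1, KRT19, MUC16, MSLN and WT1 lay below it. Of 12 markers of leukocytes, fibroblasts and endothelium, 4 reached the median on each Caov-3 array and 3 to 5 on the SKOV-3 arrays. In Caov-3 these were the fibroblast gene COL1A1, the endothelial PECAM1, CD14 and CD79A. COL1A1 was at 4826 with siltuximab plus IL-6, 4394 with IL-6 and 3802 untreated in Caov-3, against 252, 339 and 217 in SKOV-3. The leukocyte marker PTPRC, the T cell marker CD3E, LYZ and the endothelial VWF lay below the median on all 6 arrays.

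STAT3 signal on 208991_at was 1254 in Caov-3 cells given siltuximab plus IL-6, 832 in Caov-3 cells given IL-6 and 2521 in untreated Caov-3 cells. In SKOV-3 the same probe set gave 1463 with siltuximab plus IL-6, 2527 with IL-6 and 1330 untreated. The order of the 6 arrays, from the highest, was SKOV-3 with IL-6, Caov-3 untreated, SKOV-3 with siltuximab plus IL-6, SKOV-3 untreated, Caov-3 with siltuximab plus IL-6, and Caov-3 with IL-6. The first pair in that order, and each pair among the next 3, lie close together, and with 1 array each no spread is known that could separate them.

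Signal on 208992_s_at had a like pattern. It was 726 in Caov-3 with siltuximab plus IL-6, 526 with IL-6 and 1420 untreated. In SKOV-3 it was 636 with siltuximab plus IL-6, 1180 with IL-6 and 718 untreated. The highest array was untreated Caov-3 here, followed by SKOV-3 with IL-6, and the lowest was again Caov-3 with IL-6.

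The other 2 probe sets kept the low Caov-3 IL-6 array and lacked the high SKOV-3 one. Signal on 225289_at was 832 in Caov-3 with siltuximab plus IL-6, 281 with IL-6 and 784 untreated. In SKOV-3 it stayed within a narrow band, at 567 with siltuximab plus IL-6, 526 with IL-6 and 554 untreated. The dim 243213_at was at 84.1 in Caov-3 with siltuximab plus IL-6, 29.0 with IL-6 and 81.5 untreated, against 77.0, 66.7 and 66.9 in SKOV-3 under the same treatments in the same order. On all 4 probe sets the lowest of the 6 arrays was Caov-3 with IL-6.

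The ratio of the highest to the lowest array was alike on the 4 probe sets, at 3.04 on 208991_at, 2.70 on 208992_s_at, 2.96 on 225289_at and 2.90 on 243213_at. Their place in the range of signal was not. When all probe sets were ordered by mean signal and split into 10 bins of equal size, 208991_at and 208992_s_at were in bin 9, 225289_at was in bin 8 and 243213_at in bin 5. The last had a percentile of 31.3 to 50.34 on the arrays, and lay below the array's median signal on all but SKOV-3 with siltuximab plus IL-6. Levels of different probe sets are not set against each other, since each binds its target with its own strength. RNA of all cells was measured together, so fewer cells with STAT3 RNA and less of it per cell cannot be told apart.

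**Figure D1:**
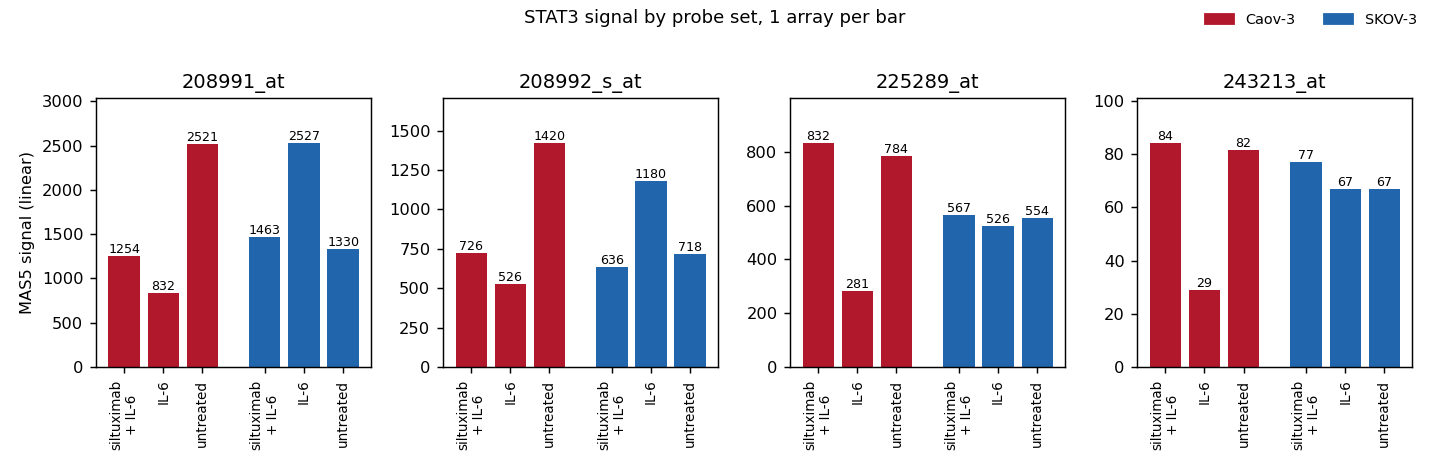
STAT3 signal (MAS5, linear scale, vertical axis from 0) on each of the 4 probe sets, with a bar for each array, Caov-3 in red and SKOV-3 in blue. The Caov-3 IL-6 bar is the lowest of every panel, and the SKOV-3 IL-6 bar stands out upwards only in the panels of 208991_at and 208992_s_at.

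With IL-6 alone, all 4 STAT3 probe sets were at least 2-fold lower on the Caov-3 array than on the untreated Caov-3 array. Of these, 3 passed the filter, which asks that the higher array reach that array's median signal, and 243213_at did not. Among all probe sets past the filter, 2997 of 29517 (10.2%) were at least 2-fold lower in this comparison. Log2 folds, taken on log2(signal + 17.06), were -1.58 on 208991_at, -1.40 on 208992_s_at, -1.43 on 225289_at and -1.10 on 243213_at. As plain ratios of signal these were 0.330, 0.370, 0.358 and 0.355, so the smaller log2 fold of the dim probe set comes from the pseudocount. Folds of the ACTB control on the same array ran with position along the transcript, at -0.61 at the 5' end, -0.39 in the middle and -0.19 at the 3' end, and those of GAPDH were -0.37, -0.44 and -0.40. The part of RNA quality in the STAT3 values was not tested.

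The share of probe sets of like brightness that stood as low grew from the bright to the dim STAT3 probe sets. On 208991_at, 118 of 5461 probe sets of the same signal bin (2.16%) had a Caov-3 IL-6 fold as low or lower. The share was 2.86% for 208992_s_at, 5.40% for 225289_at and 12.0% for 243213_at. The tail on the low side in Caov-3 was long over a wide range of signal, and the STAT3 probe sets lay inside it.

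In SKOV-3 the IL-6 array stood the other way on 2 probe sets. The log2 fold over untreated was 0.92 on 208991_at and 0.70 on 208992_s_at, 2 of 4 probe sets at least 1.5-fold higher, where 7.45% of all probe sets past the filter were. It was -0.07 on 225289_at, and the 66.7 and 66.9 of 243213_at were all but equal. None of the 4 was 2-fold higher, against 2.23% of all probe sets. In the same signal bin, 41 probe sets (0.751%) were as high as 208991_at and 98 (1.79%) as high as 208992_s_at.

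**Figure D2:**
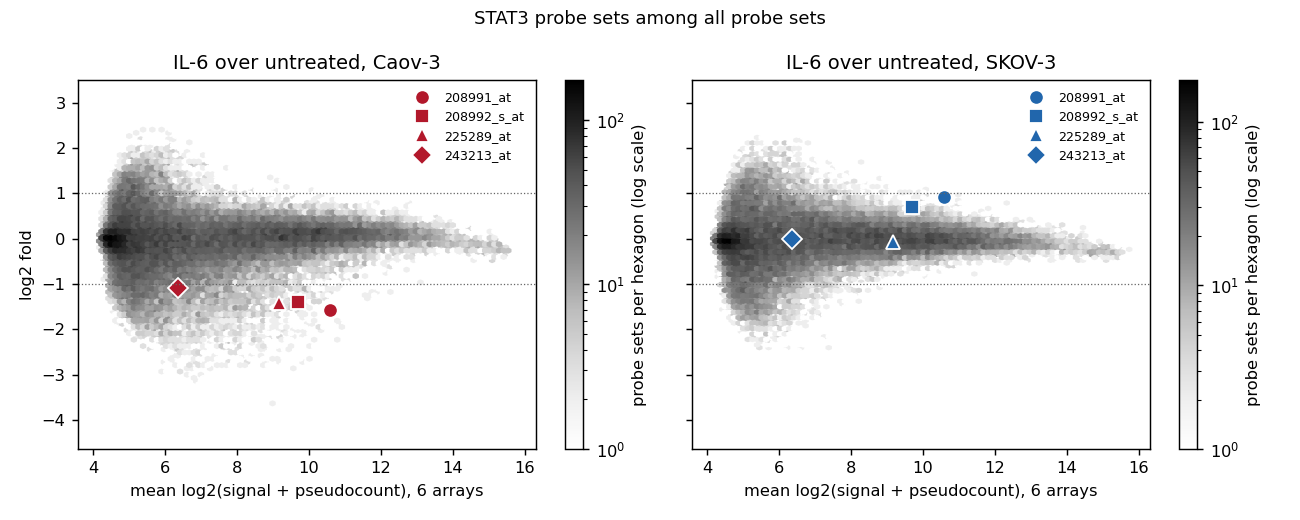
Log2 fold of IL-6 over untreated (vertical axis) against the mean of log2(signal + pseudocount) over the 6 arrays (horizontal axis), in Caov-3 on the left and SKOV-3 on the right. Grey hexagons show how many probe sets lie there on a log scale, coloured symbols are the 4 STAT3 probe sets, and dotted lines mark 2-fold. In Caov-3 all 4 symbols lie below the lower line within a broad tail of low values. In SKOV-3 the brighter pair lies at 0.92 and 0.70, in the upper part of the cloud, with other probe sets of like signal above it.

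Siltuximab before IL-6 was set against IL-6 alone. In Caov-3 all 4 probe sets were higher with the antibody, with log2 folds of 0.58 on 208991_at, 0.45 on 208992_s_at, 1.51 on 225289_at and 1.14 on 243213_at. At least 2-fold higher were 2 of them, 225289_at and 243213_at (243213_at not past the filter), where 8.87% of all probe sets past the filter were. In SKOV-3 the pair that had been high with IL-6 was lower with the antibody, at -0.78 on 208991_at and -0.87 on 208992_s_at, 2 of 4 at least 1.5-fold lower against 5.91% of all probe sets. The other pair gave 0.10 on 225289_at and 0.17 on 243213_at. Of the probe sets in the same signal bin, 27 (0.494%) were as low as 208991_at in SKOV-3 and 15 (0.275%) as low as 208992_s_at. In both lines this comparison shares the IL-6 array with the one before it, so that a low or high IL-6 array enters both with opposite signs.

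Siltuximab plus IL-6 over untreated leaves the IL-6 array out. In Caov-3 the 4 probe sets split into pairs. The log2 fold was -0.998 on 208991_at and -0.95 on 208992_s_at, and it was 0.08 on 225289_at and 0.04 on 243213_at. The first pair was at least 1.5-fold lower, which 5.35% of all probe sets past the filter were, and in the same signal bin 6 of 5461 probe sets (0.110%) were as low as 208991_at and 9 (0.165%) as low as 208992_s_at. The 5' to 3' ratio of ACTB was 0.643 with siltuximab plus IL-6 and 0.660 untreated, and the ACTB control folds lay between -0.15 and -0.06. Those of GAPDH were lower, at -0.22 at the 5' end, -0.31 in the middle and -0.27 at the 3' end. The part of RNA quality in these STAT3 values was not tested either. In SKOV-3 the folds were 0.14 on 208991_at, -0.17 on 208992_s_at, 0.03 on 225289_at and 0.17 on 243213_at, and 0 of the 4 were 1.5-fold apart, where 4.94% of all probe sets were higher and 6.95% lower.

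**Figure D3:**
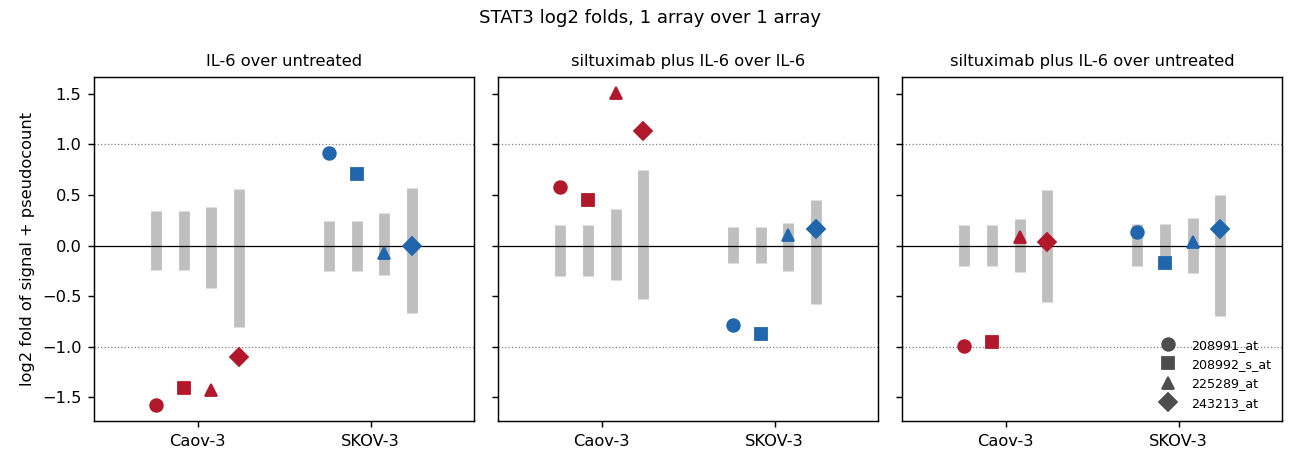
Log2 folds of signal + pseudocount (vertical axis) of the 4 STAT3 probe sets in each line, for the comparisons named above the panels. Symbols are single array-over-array folds, grey bars are the median ± 1 robust SD of all probe sets in the same signal bin, and dotted lines mark 2-fold. In the right panel 208991_at and 208992_s_at lie near -1 in Caov-3, at -0.998 and -0.95, and the other symbols lie between -0.17 and 0.17.

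The 4 probe sets gave like folds in 2 comparisons and split in the other 4. With IL-6 in Caov-3 their folds spanned 0.48 on the log2 scale, where the median span over 1199 genes with 4 probe sets was 1.13 and 10.9% of those genes spanned as little. With IL-6 in SKOV-3 they spanned 0.99, against a median of 0.80. For siltuximab plus IL-6 over IL-6 the span was 1.06 in Caov-3 (median 1.03) and 1.04 in SKOV-3 (median 0.65), and 74.7% of genes spanned as little as STAT3 in SKOV-3. For siltuximab plus IL-6 over untreated it was 1.08 in Caov-3 (median 0.74) and 0.33 in SKOV-3 (median 0.76). The pairs were the same in each of the 4 comparisons with a split, 208991_at with 208992_s_at and 225289_at with 243213_at. Where in the STAT3 transcripts each probe set binds is not part of the sources used here.

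A gene with at least 4 probe sets, all at least 2-fold lower with IL-6 in Caov-3, was rare. There were 2 among 2395 such genes (0.0835%), STAT3 and EHBP1L1, which encodes a protein of membrane traffic. STAT3 left this count, and EHBP1L1 alone remained, under quantile normalization, under cyclic loess and when every probe set had to pass the filter, since 243213_at then missed 2-fold or the filter. EHBP1L1 had a median log2 fold of -1.37, with its brightest probe set at 191 with IL-6 and 502 untreated, and its further probe sets at -1.33, -1.64 and -1.41. With IL-6 in SKOV-3 its brightest probe set was at -0.20 and the further ones at -0.71, -0.40 and 0.00. The count was 0 in the other comparisons and directions.

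The lines themselves differed in the STAT3 signal in a way that turned with treatment. Untreated Caov-3 was above untreated SKOV-3 by a log2 difference of 0.91 on 208991_at, 0.97 on 208992_s_at, 0.49 on 225289_at and 0.23 on 243213_at. With IL-6 Caov-3 was below SKOV-3, with log2 differences of -1.58, -1.14, -0.87 and -0.86 on the same probe sets. With siltuximab plus IL-6 the log2 differences were -0.22, 0.18, 0.54 and 0.10, smaller in size than untreated on all but 225289_at. On none of the 4 probe sets did the order of the lines hold over all 3 treatments.

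The other STAT genes stayed within 2-fold of untreated with IL-6. Of 4 measured, 0 were 2-fold apart with IL-6 in either line, where 1.75% of 12872 genes were higher and 3.47% lower in Caov-3 and 1.24% and 2.17% of 12370 in SKOV-3 (genes by their brightest probe set). STAT5B, which carries growth hormone signals, was at 398 with IL-6 and 375 untreated in Caov-3 and at 500 and 510 in SKOV-3. STAT5A, its close relative and neighbour, which carries prolactin signals, had log2 folds of 0.22 in Caov-3 and -0.51 in SKOV-3. STAT6, the IL-4 factor, was at 0.32 and 0.07, and STAT4, the IL-12 factor, at 0.31 in Caov-3, with its SKOV-3 signals below the filter. Their median in Caov-3 was 0.26 over 4 genes, against 0.08 over all genes, and -0.03 over 3 genes in SKOV-3, against -0.05.

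Most genes in a list of IL-6, its receptor and kinases, and related cytokines and their receptors were called between the lines, like most genes tested. Over both lines limma, with line and treatment as factors on all 6 arrays, called 3 of the 12 tested higher and 7 lower in Caov-3 than in SKOV-3, where 36.9% of all 13190 genes were higher and 30.7% lower. The 3 arrays of a line are 3 treatments and stand for 1 line each. IL6, the ligand, was at 3656, 3500 and 3703 in Caov-3 with siltuximab plus IL-6, IL-6 and no treatment, against 540, 677 and 781 in SKOV-3, a log2 difference of 2.43 ± 0.12 (SE, limma adjusted p = 3.35e-06). The receptor IL6R was the reverse, at 25.0, 39.8 and 60.0 in Caov-3 and 813, 864 and 728 in SKOV-3. Its Caov-3 signals lay below the arrays' medians and are not shown to be above background, so no size of the difference is given (lower in Caov-3, limma adjusted p = 9.85e-06). Neither gene's arrays overlapped between the lines, and the same held for every other gene called of the 12 tested. The share of all genes without overlap was not counted, so nothing particular to these genes can be read from it.

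The shared chain gp130 (IL6ST) was bright in both lines and lower in Caov-3, at 3737, 3857 and 4206 against 7378, 7344 and 8466 in SKOV-3. The receptor LIFR, which joins gp130 for the cytokine LIF, was also lower in Caov-3, with a log2 difference of -3.36 (limma adjusted p = 6.42e-07). Of the kinases, JAK1 was higher in Caov-3 by 0.89 and TYK2 by 0.76 on the log2 scale, and JAK2 was lower, at -1.12 (limma adjusted p = 8.12e-05, 0.00102 and 0.00345). OSMR, the oncostatin M receptor, differed by -0.10 ± 0.12 (limma adjusted p = 0.471).

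With IL-6, limma called 0 genes of these or of all genes over both lines (1242 of 13190 at an unadjusted p under 0.05, smallest adjusted p 0.232). Log2 folds in Caov-3 and SKOV-3 were -0.12 and -0.20 for IL6ST, -0.10 and -0.35 for JAK1, 0.22 and -0.51 for JAK2 and 0.22 and -0.23 for TYK2. The ligands LIF (0.17 and -0.25) and IL11 (-0.82 and -0.05) and the receptor IL11RA (0.09 and 0.26) were all under 2-fold, and OSM was below the filter in both lines. IL11 followed the Caov-3 order of 225289_at, at 283 with siltuximab plus IL-6, 147 with IL-6 and 274 untreated. SRC, a kinase that can phosphorylate STAT3 directly, was at 288 with IL-6 and 23.9 untreated in Caov-3. Its log2 fold of 2.90 is against an untreated signal below the array's median, not shown to be above background, and it was the 1 gene of 11 past the filter that was 2-fold higher, against 1.75% of all genes. Its 6 further probe sets ran from -1.08 to 1.11, so that its probe sets disagreed in direction. Those of STAT3 did not for IL-6 in Caov-3, though they split in other comparisons.

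SOCS3, the feedback inhibitor, stood higher with IL-6 in both lines on its brightest probe set. It was at 625 with siltuximab plus IL-6, 845 with IL-6 and 594 untreated in Caov-3, against 1321, 1602 and 1159 in SKOV-3. The IL-6 effect over both lines was 0.48 ± 0.12 (SE, limma adjusted p = 0.343). A further probe set, 214105_at, gave 0.79 in Caov-3 and 0.73 in SKOV-3, 206359_at gave 0.01 and -0.23, and 206360_s_at gave -0.94 in Caov-3 and 0.47 in SKOV-3, the signs of 208991_at of STAT3. Among all negative regulators, 0 of 12 in Caov-3 and 0 of 13 in SKOV-3 were 2-fold apart. Over all genes, 1.75% were higher and 3.47% lower in Caov-3, and 1.24% and 2.17% in SKOV-3. The phosphatase PTPN6 was at 0.06 and -0.42, the SOCS relative CISH at 0.38 and -0.23, and NDUFA13, a mitochondrial protein that binds STAT3, at 0.16 and -0.27.

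Of the cofactors and partners of STAT3 in transcription, 0 of 11 in Caov-3 and 0 of 12 in SKOV-3 were 2-fold apart with IL-6, where the shares over all genes were 1.75% higher and 3.47% lower in Caov-3 and 1.24% and 2.17% in SKOV-3. The acetyltransferase EP300 was below the filter in Caov-3, at 42.0 with IL-6 and 2.94 untreated. CREBBP, its close relative, was at 0.28 and 0.32, the glucocorticoid receptor NR3C1 at 0.33 and 0.02, the kinase MTOR at 0.01 and -0.37 and APEX1, a redox and DNA repair protein, at -0.04 and -0.31.

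Early targets of STAT3 had a median IL-6 fold of 0.04 over 19 genes in Caov-3, against 0.08 over all genes. In SKOV-3 it was -0.02 over 19 genes, against -0.05. In either line 0 were 2-fold apart, where 1.75% of all genes were higher and 3.47% lower in Caov-3 and 1.24% and 2.17% in SKOV-3. JUNB, an AP-1 factor, was at 0.18 in Caov-3 and 0.61 in SKOV-3, TNFAIP3, an inhibitor of NF-kB, at 0.62 and -0.11, and the adhesion molecule ICAM1 at -0.67 and -0.13. JUNB signal in SKOV-3 was 380 with siltuximab plus IL-6, 530 with IL-6 and 341 untreated, the order of STAT3 on 208991_at.

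Survival and growth targets had 1 of 14 genes 2-fold higher in Caov-3, against 1.75% of all genes. In SKOV-3, 0 of 13 were apart, where 1.24% of all genes were higher and 2.17% lower. The 1 gene was the growth factor FGF2, at 165 with IL-6 and 50.5 untreated, the untreated signal being below the array's median. BCL2, which blocks cell death, was at -0.62 and 0.51, with the signs of STAT3, its relative BCL2L1 at 0.52 and -0.23, and MCL1, another of them, at -0.39 and -0.15. The endothelial marker PECAM1 also followed STAT3 in Caov-3, at 891 with siltuximab plus IL-6, 331 with IL-6 and 1162 untreated. The summed signal of all 12 markers of other cell types was 6786, 5733 and 6067 on the same arrays and 921, 978 and 1296 on the SKOV-3 ones. Of those past the filter, 1 of 4 in Caov-3 (PECAM1) and 1 of 5 in SKOV-3 (the leukocyte gene LCP1, at -1.46) were 2-fold lower with IL-6, against 3.47% and 2.17% of all genes. In SKOV-3, 3 of the 5 genes were at least 1.5-fold lower (LCP1, CD79A at -0.87 and CD14 at -0.68). The LCP1 signal with IL-6, 50.8, was below the array's median. The fibroblast gene COL1A1 was at least 1.5-fold higher, at 0.61. Of all probe sets past the filter 6.58% were 1.5-fold lower and 7.45% higher. These shares are over probe sets and not genes, and the shares over genes at 1.5-fold are not given by direction. The list's median was -0.68, against -0.05 over all genes. Of the epithelial markers 0 of 10 in Caov-3 and 0 of 6 in SKOV-3 were 2-fold apart. The shares over all genes were 1.75% higher and 3.47% lower in Caov-3 and 1.24% and 2.17% in SKOV-3. The part of other cell types in the STAT3 values was not tested.

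**Figure D4:**
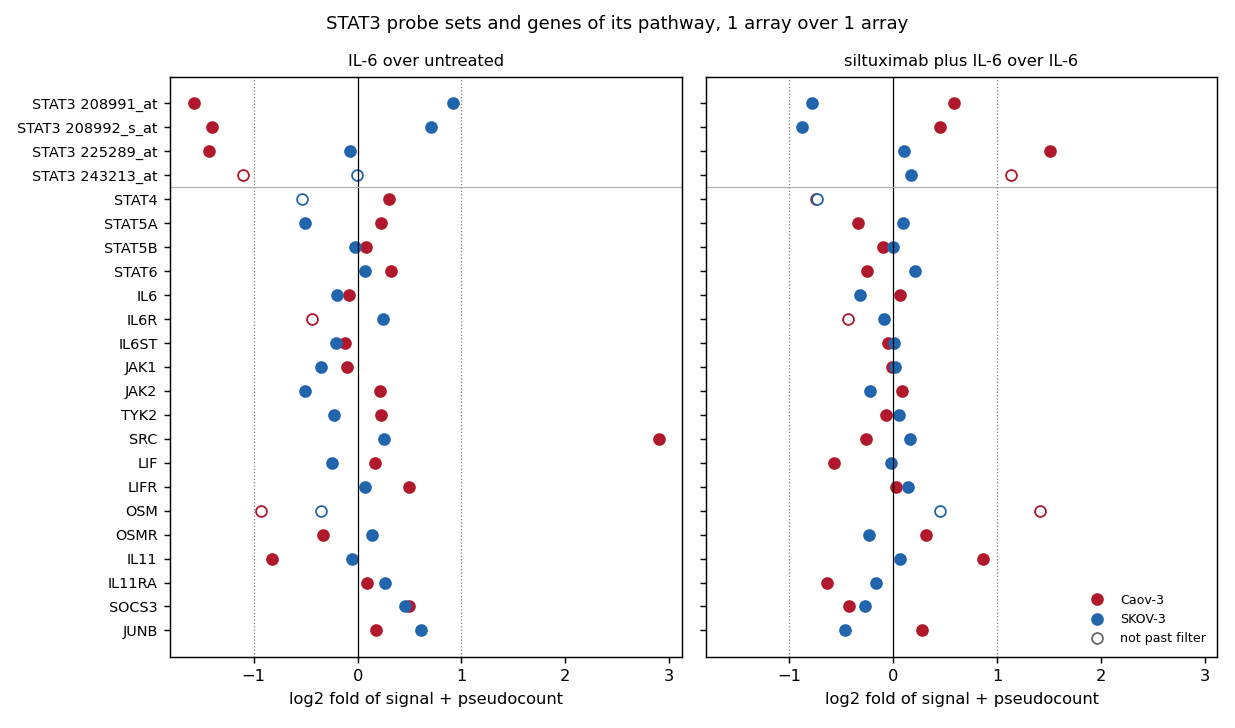
Log2 folds of signal + pseudocount (horizontal axis) of the STAT3 probe sets and of genes of its pathway, for IL-6 over untreated on the left and siltuximab plus IL-6 over IL-6 on the right, each 1 array over 1 array. Caov-3 is red, SKOV-3 is blue, open circles did not pass the filter and dotted lines mark 2-fold. Among the genes drawn below the STAT3 probe sets, SRC at 2.90 in Caov-3 is the 1 past the filter that lies beyond the 2-fold lines.

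Neighbours of STAT3 on chromosome 17 did not share its pattern. Of the 4 genes on each side, 6 had a probe set. CAVIN1, a coat protein of caveolae and the nearest gene beyond the STAT3 promoter, had IL-6 folds of 0.44 in Caov-3 and -0.46 in SKOV-3, both opposite in sign to 208991_at. GHDC was at -0.23 and -1.001, and ATP6V0A1, a subunit of the vacuolar proton pump, at 0.14 and -0.19. The orexin precursor HCRT was dim, at 56.2 with IL-6 and 48.7 untreated in Caov-3. STAT5A and STAT5B are given above.

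The genes most like STAT3 were ranked by the root mean square difference of log2 values, each gene centred on its own mean, over the 6 arrays and 13189 genes. CA5BP1, a carbonic anhydrase pseudogene, was the nearest at 0.0962, where the median gene was at 0.711. RFC2, a subunit of the clamp loader of DNA replication, followed at 0.184, the lysosomal sulfatase ARSB at 0.197, and the antisense RNAs SSBP3-AS1 and TAPT1-AS1 at 0.231 and 0.235. Signal of CA5BP1 was 264 with siltuximab plus IL-6, 155 with IL-6 and 497 untreated in Caov-3, against 339, 494 and 286 in SKOV-3. RFC2 was at 939, 494 and 1337 in Caov-3 and 945, 1752 and 1021 in SKOV-3. The likeness was often that of a probe set and not of a gene. A further probe set of CA5BP1 had an IL-6 fold of 0.12 in Caov-3, and the 3 of ARSB gave -0.49, 0.78 and -0.33. The ARSB probe sets at 0.78 and -0.33 lay below the median on both arrays and are not shown to be above background. The further probe set of RFC2 gave -1.04 in Caov-3 and 0.76 in SKOV-3. When STAT3 was taken as the mean of its 4 probe sets, 1 of the 5 names (SSBP3-AS1) was kept.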

How the data were processed

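Values are the authors' deposited intensities per probe set, made with Affymetrix Expression Console and MAS5 per the submitters' processing notes, with versions not given in the sources used here. They were already scaled by array. Of 54675 probe sets, 62 were array controls. Log2 was taken after adding 17.06, the 20th percentile of named values. Genes took their brightest probe set (19775 genes). A comparison of 2 arrays kept features whose higher array reached its array's median. Signal bins were formed on the mean log2 value over all probe sets. limma 3.58.1 in R 4.3.3 (line and treatment as factors, trended prior, 2 residual degrees of freedom) tested 13190 genes with at least 2 arrays at the median, with Benjamini-Hochberg adjustment and a threshold of 0.05. It was tested on simulated data, where 200 of 200 genes changed by 3 on the log2 scale were recovered for IL-6, with 16 unchanged genes called. The change was added to all arrays given IL-6, with or without siltuximab, and alike in both lines. Recovery of smaller changes, or of changes that differ between the lines, was not tested. Promoters and gene positions came from RefSeq (GRCh38.p14). Genes were named by list: all STAT and receptor genes, otherwise the 4 members past the filter with the largest IL-6 fold, besides SOCS3. EP300, COL1A1 and the markers named for their level stood outside this rule. STAT3 and the lists were chosen with earlier results of these data known. A few genes of the lists are not reported here. Python 3.11.15, pandas 2.3.3 and matplotlib 3.10.9 were used.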

Additional observations from a re-analysis of the deposited data

Results flagged for a closer look

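STAT3 stood in opposite directions in the lines on the brighter pair of probe sets, and none of these differences was tested, since each rests on 1 array over 1 array in each line. For IL-6 over untreated, the Caov-3 log2 fold minus the SKOV-3 one was -2.50 on 208991_at (-1.58 in Caov-3, 0.92 in SKOV-3) and -2.11 on 208992_s_at (-1.40 and 0.70). For siltuximab plus IL-6 over IL-6 it was 1.36 on 208991_at (0.58 and -0.78) and 1.32 on 208992_s_at (0.45 and -0.87), on the same IL-6 arrays. Without those arrays, for siltuximab plus IL-6 over untreated, it was -1.13 on 208991_at (-0.998 and 0.14).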

How the results depend on the processing

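Of 114 values of the STAT3 folds under other settings, 111 kept their direction, and the 3 that turned were values within 0.14 of 0. With the mean or the median of all 4 in place of 208991_at, STAT3 stood at 0.39 or 0.32 for IL-6 over untreated in SKOV-3 and at 0.92 or 0.98 for siltuximab plus IL-6 over IL-6 in Caov-3. It stood at -0.35 or -0.38 for that comparison in SKOV-3 and at -0.46 or -0.43 for siltuximab plus IL-6 over untreated in Caov-3. With a pseudocount of the median (111), 243213_at moved to -0.46 for IL-6 and 0.48 for siltuximab over IL-6 in Caov-3, and under quantile normalization and cyclic loess its IL-6 fold was -0.94 and -0.88. STAT3 then had 3 probe sets at least 2-fold lower under these normalizations, so the count of genes with 4 or more probe sets, all 2-fold lower, was 1 under both, and 1 of 690 genes when every probe set had to pass the filter, each time EHBP1L1 alone. At 1.5-fold it was 4, with DRD2 and TMEM63A added.

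Counts of probe sets 2-fold apart changed with a pseudocount of the median, a filter at the 75th percentile, no filter, and a 1.5-fold threshold, in that order. For IL-6 over untreated they were 1221, 780, 5660 and 5051 lower in Caov-3 (2997 as reported) and 71, 96, 2253 and 2173 higher in SKOV-3 (651). For siltuximab plus IL-6 over IL-6 they were 1018, 659, 5088 and 4527 higher in Caov-3 (2604) and 28, 37, 2211 and 1702 lower in SKOV-3 (455). For siltuximab plus IL-6 over untreated they were 32, 23, 2674 and 1546 lower in Caov-3 (455) and 19, 25, 1932 and 1433 higher in SKOV-3 (430). Genes 2-fold apart with IL-6 were 215, 179, 1871 and 1735 in Caov-3 (672) and 28, 20, 1749 and 1238 in SKOV-3 (422). With siltuximab they were 149, 137, 1651 and 1314 in Caov-3 (538) and 5, 4, 1312 and 819 in SKOV-3 (240). The 5 were BCL7C, GLDN, GTF2IP20, LOC105376166 and NUDT10 and the 4 were AKIP1, BCL7C, RRN3P3 and TRIM16, named after their values were seen. Without the Caov-3 IL-6 array limma called 3 genes for IL-6 over untreated, NACA4P (2.14, adjusted p = 0.00181), FUBP3 (1.49, 0.00543) and BCL7C (-1.85, 0.0177). It called 3 for siltuximab plus IL-6 over untreated, NACA4P (1.28, adjusted p = 0.0101), FUBP3 (1.03, 0.0101) and CMC1 (0.83, 0.0444). For IL-6 over untreated the lone SKOV-3 IL-6 array carries the effect and is assumed to vary like the other groups. Those p-values have no replicate of IL-6 alone behind them. Siltuximab plus IL-6 over untreated rests on 1 array of each of these groups in each line. In both comparisons 1 residual degree of freedom is left. The cause of these changes was not tested.

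No paired analysis was possible because each group has 1 array and the labels carry no replicate numbers to use as a block, and the limma fit sets treatments against each other within line by its line factor. With 1 array a group, no STAT3 difference within a line has an error. The folds of the dim 243213_at rest on signals near or below the arrays' median.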
